A study of Mus musculus with 10 samples.

Results

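The collagen genes were taken as every probe, other than control spots, whose deposited gene name is Col followed by a chain number, the letter a and a second number. This gave 78 probes of 40 genes among the 41174 probes and 27962 gene names on the array. The probes were sorted into fibrillar chains (25 probes of 11 genes), basement membrane chains (13 of 6), FACIT chains, which attach to the surface of fibrils (14 of 9), and all other chains (26 of 14). Whole lung of 8-week-old male mice was collected after the animals had breathed aerosolized saline for 30 min, and total RNA was hybridised to 1-colour arrays. Mice of the C57BL/6J strain served as wild type for p53-null mice on that background, with 5 arrays per genotype that the series' design calls biological replicates. The labels give the genotype as p53 null without naming the allele, and do not say whether an array pools animals.

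Collagens are trimeric proteins whose chains wind into a triple helix, which requires glycine at each turn of a repeating triplet. Types I, III and V build the fibrils that give the lung its tensile strength, type IV forms the sheet under epithelium and endothelium, and type VI forms beaded filaments around cells. Fibroblasts make most fibrillar collagen of the lung, whereas epithelial and endothelial cells also contribute to the basement membrane.

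Of the 78 probes, 61 from 36 genes were well above background on at least 5 of the 10 arrays and were tested. The other 17 probes were above background on at most 4 arrays, 6 of them on none. They include every probe of Col9a1, Col10a1, Col24a1 and Col28a1. No collagen probe was saturated on any array. All values are log2 signals relative to the 75th percentile of the same array, in the order of arrays 1 to 5 of a genotype, and probes are not compared with each other in level. Differences are those of p53-null from wild-type lung, with SE from limma and 5 arrays per group, and a probe was called when its Benjamini-Hochberg adjusted p over all 31599 tested probes was under 0.05.

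The share of spots well above background ran from 71.4% to 84.0% over the arrays, and the correlation between any 2 arrays over all tested probes lay from 0.967 to 0.991. A Trp53 probe placed at chr11:69671206-69671265 (mm7) was lower on every p53-null array, from -3.15 to -2.66, than on any wild-type array, from -2.22 to -1.43, while a second probe of the gene at chr11:69662031-69662089 differed by 0.31 ± 0.28 (adjusted p = 0.504 by limma). The labels do not say which part of the gene is deleted, so it is unknown whether either probe lies in it. Markers of lung were checked against the labelled tissue. All 8 alveolar type 2, all 6 alveolar type 1 and all 8 endothelial marker genes on the array were well above background on all 10 arrays, with Sftpc between 7.18 and 8.16. Skeletal muscle marker scores, the mean over genes of log2 signal less the 10-array mean, were high on array 2 of the wild type (3.98) and on p53-null arrays 4 and 5 (2.97 and 2.89), against -1.94 to -1.11 elsewhere. Squamous epithelium scores were high on the same wild-type array (5.11) and on p53-null array 5 (4.0), against -1.52 to -0.73. Wild-type array 5 had the highest wild-type value on 27 and the lowest on 13 of the 61 tested collagen probes. Its deviation from the other wild-type arrays correlated with the GC content of the probe across collagen probes (Pearson r = 0.46, Spearman rho = 0.417, 60 probes that share these arrays, given as a description).

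Sequences are shown for probes of 1 gene that overlap and yet differ in result, for probes that read the glycine repeat along their whole length, and for the probe with the largest difference. The tested probes of Col2a1 overlap, and the capitals mark the 40 bases they share, on the minus strand of chromosome 15 (mm7).
Col2a1 A_52_P216436 (chr15:97979257-97979316): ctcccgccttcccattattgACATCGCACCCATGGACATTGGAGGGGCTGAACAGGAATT
Col2a1 A_51_P317141 (chr15:97979237-97979296): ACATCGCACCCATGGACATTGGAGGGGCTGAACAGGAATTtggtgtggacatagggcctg
The next 3 probes read GG at the start of 1 codon in 3 along their whole length, the code for the glycine repeat of the triple helix, with those codons in capitals. No other probe among the 41174 on the array did so, but a probe only partly in the repeat would not be found by this rule. The files place their ends on separate stretches of the genome, on the plus strand for Col5a1 and Col11a2 and the minus strand for Col5a3 (mm7).
Col5a1 A_52_P237371 (chr2:27994034-27996457): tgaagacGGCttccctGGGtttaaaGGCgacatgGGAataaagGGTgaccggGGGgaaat
Col5a3 A_52_P503796 (chr9:20655471-20656200): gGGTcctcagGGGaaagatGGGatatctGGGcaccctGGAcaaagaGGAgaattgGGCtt
Col11a2 A_52_P563285 (chr17:32131401-32131567): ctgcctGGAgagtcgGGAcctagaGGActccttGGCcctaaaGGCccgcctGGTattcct
The Col1a1 probe with the largest difference of all tested collagen probes lies on the plus strand at chr11:95059777-95059836 (mm7) and is given without capitals.
Col1a1 A_51_P377094: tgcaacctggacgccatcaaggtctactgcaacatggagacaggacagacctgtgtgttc

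Of the 61 tested probes, 17 were called lower in p53-null lung and none higher. These 17 (27.9%) belong to 16 genes, beside 3.10% of all tested probes called lower, 4.0% called higher and 7.10% either way. The 44 other probes lay between -0.63 and 0.85. In all, 48 of the 61 differences were below 0, beside 45.2% of all tested probes. By array, 18 collagen probes (29.5%) had all p53-null arrays below all wild-type arrays, against 4.29% of all tested probes, and none had the reverse order. The median difference of the 61 probes was -0.27, and that of all tested probes 0.04. At an unadjusted p under 0.05 there were 29 collagen probes, 27 of them lower, where 27.3% of all tested probes passed in either direction. In whole lung, fewer cells of a type and less RNA per cell cannot be told apart. Neutrophil and B cell markers moved with genotype. Of 10 neutrophil genes 7 were called higher in p53-null lung, with scores from 0.09 to 1.58 against -1.05 to -0.44. Of 8 B cell genes 7 were called higher, with scores from 0.31 to 1.30 against -1.36 to -0.21. Their part in the collagen differences was not tested.

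**Figure D1:**
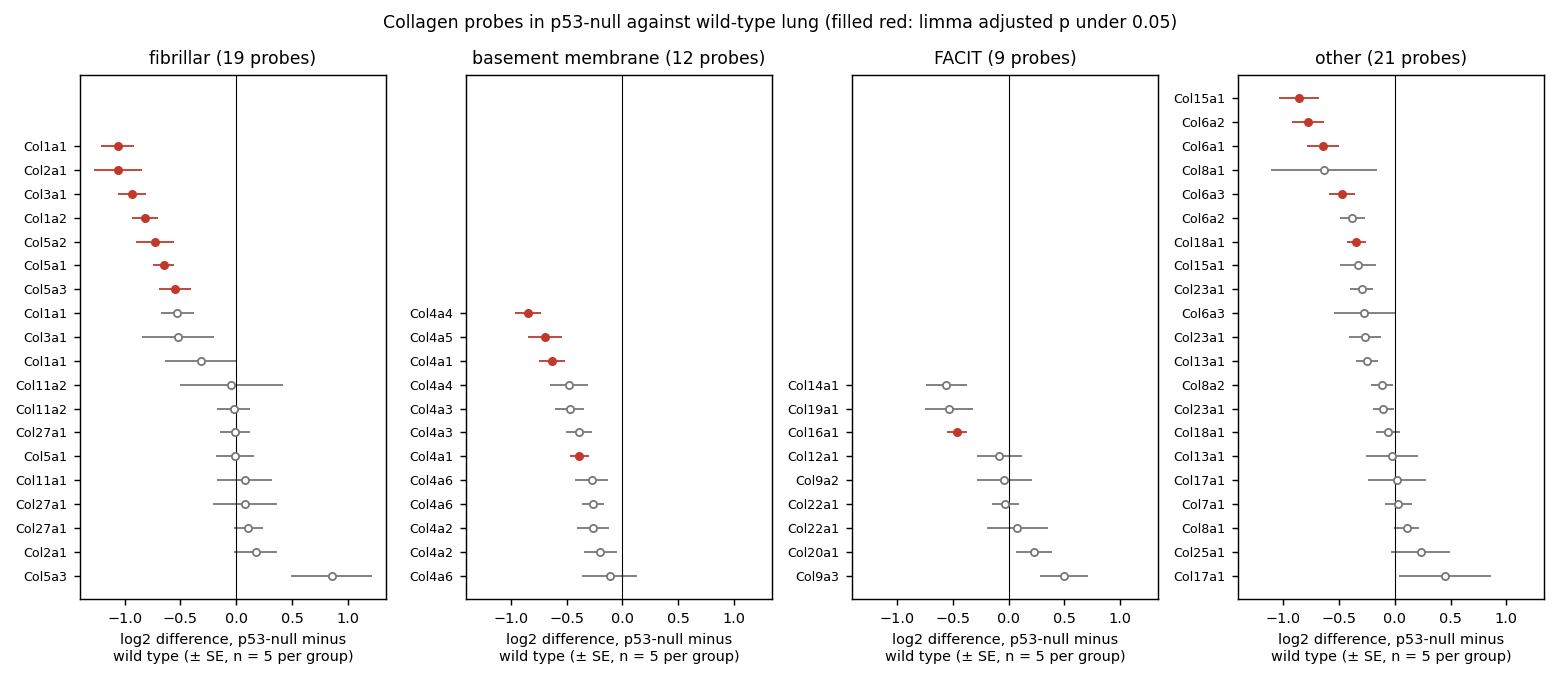
Log2 difference between p53-null and wild-type lung (x axis) with SE for each of the 61 tested collagen probes, 1 row per probe, in 4 panels by collagen type; groups hold 5 arrays, or 4 wild-type arrays for the 2 probes with a spot left out. Filled red points are the 17 called probes, which lie between -1.06 and -0.34, and open points are not called.

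Both chains of fibrillar collagen I fell, Col1a1 by 1 of its 3 tested probes and Col1a2 by its only tested one. Col1a1 and Col1a2 encode the chains of the most abundant fibril protein, which assembles from a pair of the first and 1 of the second. The Col1a1 probe A_51_P377094 read 0.94, 1.23, 1.62, 1.37 and 1.44 on wild-type arrays and 0.05, 0.31, 0.08, 0.56 and 0.29 on p53-null arrays. Every p53-null array lay below every wild-type array, with wild-type array 1 lowest and p53-null array 4 highest of their groups. The signal fell by 1.06 (log2, SE 0.14, adjusted p = 0.00922 by limma), a 2.09-fold decrease. Col1a1 lies on chromosome 11, as does Trp53, and 4.58% of the 2489 tested probes on that chromosome were called lower.

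A further Col1a1 probe, A_52_P525107, printed in 10 spots, read 4.41, 4.65, 4.87, 4.75 and 5.25 on wild-type arrays and 4.09, 4.25, 4.19, 4.46 and 4.30 on p53-null arrays. Its groups overlapped, p53-null array 4 lying above wild-type array 1, and its difference of -0.53 ± 0.15 was not called (adjusted p = 0.0579 by limma). The probe A_52_P658611 read -5.43, -4.74, -4.63, -4.53 and -3.34 against -4.84, -4.53, -5.19, -4.75 and -4.97, with wild-type array 5 well above and wild-type array 1 below all others, and gave -0.32 ± 0.32 (adjusted p = 0.562 by limma). Col1a2 was measured by A_51_P182303 at 5.48, 5.77, 5.89, 5.68 and 5.54 on wild-type and 4.64, 4.85, 4.71, 5.08 and 4.97 on p53-null arrays. The groups did not overlap, and Col1a2 fell by 0.82 (log2, SE 0.12, adjusted p = 0.0104 by limma). Its other probe was not well above background on enough arrays to be tested.

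Col3a1, whose homotrimer is threaded with type I in distensible tissue, also fell. Its probe A_51_P515605 read 4.70, 5.11, 5.22, 5.0 and 5.28 on wild-type arrays and 4.05, 4.12, 3.92, 4.29 and 4.26 on p53-null arrays. No p53-null array reached the lowest wild-type array, array 1, and the signal fell by 0.94 (log2, SE 0.12, adjusted p = 0.00872 by limma), or 1.91-fold. A second probe, A_52_P684242, read -4.89, -4.08, -4.15, -3.91 and -2.92 against -4.49, -4.11, -5.0, -4.29 and -4.68. The groups overlapped on that probe, with wild-type array 1 among the p53-null arrays and array 5 above all others, and its difference of -0.52 ± 0.32 was not called (adjusted p = 0.322 by limma). The last Col3a1 probe was not tested.

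Type V chains, which set the diameter of type I fibrils, were lower at 3 of 3 genes, each by 1 probe. Col5a1 (A_51_P414637) read 2.01, 2.09, 2.44, 2.09 and 2.16 on wild-type and 1.46, 1.53, 1.39, 1.60 and 1.56 on p53-null arrays. Its groups were separate, with wild-type array 3 the highest, and Col5a1 fell by 0.65 (log2, SE 0.09, adjusted p = 0.0111 by limma). Col5a2 (A_51_P247883) read 0.79, 1.08, 1.40, 1.38 and 1.64 against 0.43, 0.84, 0.34, 0.69 and 0.35, and fell by 0.73 (log2, SE 0.17, adjusted p = 0.0360 by limma). For Col5a2 the lowest wild-type array, array 1 at 0.79, lay below p53-null array 2 at 0.84. Col5a3 (A_51_P241995) read 0.29, 0.59, 0.61, 0.26 and 0.06 against -0.46, -0.34, -0.18, 0.06 and -0.01, its lowest wild-type value (array 5) equal after rounding to its highest p53-null value (array 4), and fell by 0.55 (log2, SE 0.14, adjusted p = 0.0466 by limma).

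None of the 3 probes that read the glycine repeat along their whole length was called. For Col5a1, A_52_P237371 read -4.78, -4.42, -4.53, -4.49 and -3.82 on wild-type arrays and -4.55, -4.42, -4.66, -4.19 and -4.27 on p53-null arrays, a difference of -0.01 ± 0.17 (95% interval -0.39 to 0.37). For the signal of this dim probe the interval excludes a fall as large as the -0.65 ± 0.09 of the other Col5a1 probe. It does not bound the change of Col5a1 RNA, since dim collagen probes had smaller differences (below). The difference between the probes was not tested, and the sign near 0 turned positive under several other settings. For Col5a3, A_52_P503796 read -7.68, -6.39, -7.93, -6.08 and -6.51 against -6.11, -5.65, -6.24, -6.52 and -5.81. It was well above background on 2 wild-type and 5 p53-null arrays, and its difference of 0.85 ± 0.36 in the other direction was not called (adjusted p = 0.166 by limma). The Col11a2 probe of this kind differed by -0.04 ± 0.46 (95% interval -1.08 to 0.99).

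Col2a1, the fibrillar collagen of cartilage, gave opposite signs from its overlapping probes. A_51_P317141, printed in 10 spots, read -0.94, -0.85, -0.42, -0.04 and -0.98 on wild-type and -2.12, -1.23, -1.85, -1.71 and -1.62 on p53-null arrays. The highest p53-null value, on array 2, lay below the lowest wild-type value, on array 5, and the signal fell by 1.06 (log2, SE 0.22, adjusted p = 0.0264 by limma). A_52_P216436, shifted by 20 bases, read -3.04, -2.71, -2.98 and -2.60 on wild-type arrays 1 to 4 and -2.45, -2.42, -2.58, -2.56 and -3.29 on p53-null arrays. Wild-type array 5 was left out there because its spot was marked as an outlier, and the difference of 0.17 ± 0.19 was not called (adjusted p = 0.603 by limma). With that spot kept the difference was -0.24. Cartilage marker scores ran from -0.39 to 0.50 on wild-type and from -0.48 to 0.50 on p53-null arrays, over 8 genes. Matn1 and Matn3 were not well above background on any array, and of the 8 genes only Chad, a cartilage leucine-rich repeat protein, was called, at -0.56 ± 0.12 (adjusted p = 0.0292 by limma).

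Counted over the type, 7 of 19 tested fibrillar probes (36.8%) of 7 genes were called lower, beside 3.10% of all tested probes, and the median difference was -0.32. That median was -0.54 without wild-type array 1 and -0.02 without wild-type array 5. The 6 tested probes of Col11a1, Col11a2 and Col27a1, minor fibrillar chains, lay between -0.04 and 0.11. They were dim, with group means from -5.26 to -1.81, and few collagen probes that dim were called in any type.

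**Figure D2:**
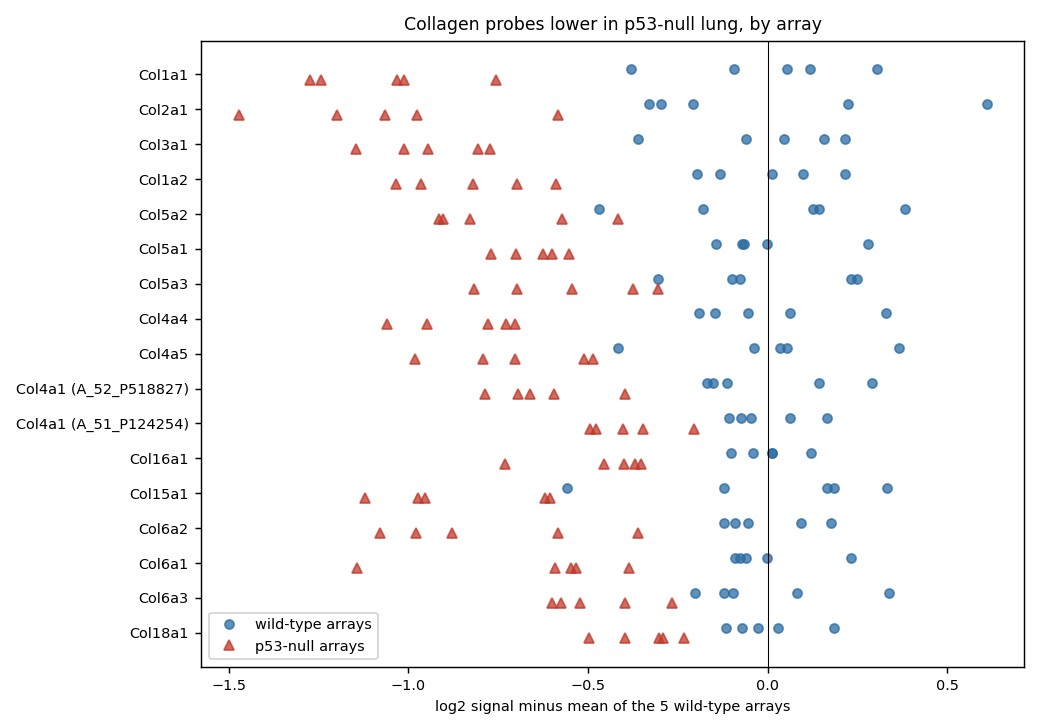
Log2 signal of the 17 called collagen probes on each array, less the mean of the 5 wild-type arrays for that probe (x axis), 1 row per probe; circles are wild-type arrays and triangles p53-null arrays. The groups overlap on the row of Col5a2 and touch on that of Col5a3.

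All 12 tested basement membrane probes had differences below 0, with a median of -0.39. Of them 4 (33.3%), of 3 genes, were called lower, beside 3.10% of all tested probes. Col4a1 and Col4a2 encode the chains of the type IV network found in all basement membranes. The Col4a1 probe A_52_P518827 read 3.16, 3.22, 3.48, 3.18 and 3.63 on wild-type and 2.64, 2.74, 2.55, 2.94 and 2.67 on p53-null arrays, and fell by 0.63 (log2, SE 0.12, adjusted p = 0.0212 by limma). The other Col4a1 probe, A_51_P124254, read 3.70, 3.74, 3.98, 3.77 and 3.87 against 3.33, 3.47, 3.32, 3.61 and 3.41, and fell by 0.39 (log2, SE 0.09, adjusted p = 0.0344 by limma). Neither probe showed overlap between the groups, and p53-null array 4 was the highest of its group on both. Col4a2, whose gene starts beside Col4a1 and is read in the other direction, was not called. Its probe A_51_P491350 read 3.73, 3.70, 3.99, 3.68 and 4.29 on wild-type arrays and 3.50, 3.65, 3.49, 3.94 and 3.50 on p53-null arrays, a difference of -0.26 ± 0.14 (95% interval -0.58 to 0.06, adjusted p = 0.271 by limma). The second Col4a2 probe, A_52_P496142, read 2.43, 2.41, 2.58, 2.40 and 3.05 against 2.11, 2.47, 2.33, 2.67 and 2.31, a difference of -0.20 ± 0.15 (adjusted p = 0.431 by limma). On both Col4a2 probes p53-null array 4 lay among the wild-type arrays and wild-type array 5 was highest.

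The chains Col4a3, Col4a4 and Col4a5 form a separate type IV network, known from the alveolar and glomerular basement membranes. For Col4a4, A_51_P382708 read 1.45, 1.36, 1.84, 1.57 and 1.32 on wild-type and 0.56, 0.73, 0.45, 0.78 and 0.81 on p53-null arrays. The groups were separate on every array, and Col4a4 fell by 0.84 (log2, SE 0.12, adjusted p = 0.0104 by limma), the largest fall of the type. The further Col4a4 probe A_52_P424594 read 2.80, 2.69, 2.88, 2.85 and 2.10 against 1.88, 2.33, 1.98, 2.38 and 2.38. Wild-type array 5 fell among the p53-null arrays there, and the difference was -0.48 ± 0.17 (adjusted p = 0.112 by limma). Col4a5 (A_51_P216005) read -0.82, -0.90, -0.49, -0.80 and -1.27 against -1.84, -1.37, -1.65, -1.34 and -1.56. Its groups were separate by a small margin, again with wild-type array 5 lowest, and Col4a5 fell by 0.69 (log2, SE 0.15, adjusted p = 0.0308 by limma).

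Both tested Col4a3 probes missed the threshold. A_51_P296535 read 0.92, 0.78, 1.18, 0.88 and 1.05 on wild-type and 0.44, 0.71, 0.33, 0.83 and 0.55 on p53-null arrays and differed by -0.39 ± 0.12 (adjusted p = 0.0687 by limma). A_52_P469744 read -0.03, 0.05, 0.25, 0.13 and -0.09 against -0.76, -0.12, -0.52, -0.25 and -0.41 and differed by -0.47 ± 0.13 (adjusted p = 0.0514 by limma). On the second the groups did not overlap, and on the first p53-null array 4 exceeded wild-type array 2. The 3 probes of Col4a6, a chain with a more restricted distribution, differed by -0.28 to -0.11 and were not called.

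Among FACIT chains 1 of 9 tested probes (11.1%) was called lower, beside 3.10% of all tested probes. The median difference was -0.04, within a range of -0.15 to 0.07 over the fits that left out 1 array. Col16a1, which is found at the surface of fibrils and microfibrils, read 2.88, 2.99, 3.10, 2.99 and 2.94 on wild-type arrays and 2.25, 2.61, 2.53, 2.63 and 2.58 on p53-null arrays by A_51_P291062. The wild-type arrays spanned a narrow range, p53-null array 1 was the lowest, and the signal fell by 0.46 (log2, SE 0.09, adjusted p = 0.0251 by limma). Col14a1, a fibril-associated chain of lung mesenchyme, read 2.0, 2.01, 2.17, 1.81 and 1.19 against 0.97, 1.27, 1.30, 1.48 and 1.39. Wild-type array 5 lay among the p53-null arrays, and the difference of -0.56 ± 0.18 was not called (adjusted p = 0.0844 by limma). Col19a1 was dim, at -6.19, -6.86, -6.06, -6.65 and -6.60 against -6.59, -6.86, -7.23, -7.60 and -6.76 with overlapping groups, and differed by -0.53 ± 0.22 (adjusted p = 0.148 by limma). The other 6 FACIT probes, of Col9a2, Col9a3, Col12a1, Col20a1 and Col22a1, lay between -0.08 and 0.50. These 6 were dim, with group means from -5.15 to -2.06, and calls among collagen probes of all types were concentrated in bright ones (below). The FACIT count and median therefore do not set this type apart from the others.

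In the remaining types, calls fell on the beaded filament chains (3 of 5 tested probes, 1 per gene) and the multiplexins, which carry breaks in the helix (2 of 4). None of 8 transmembrane, 3 network-forming and 1 anchoring fibril probes was called. Over the 21 probes 5 (23.8%) were called lower, beside 3.10% of all tested probes, and the median was -0.27.

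Type VI collagen is a heterotrimer of Col6a1, Col6a2 and Col6a3 in its common form. Col6a2 (A_51_P279639) read 0.92, 0.96, 1.19, 0.89 and 1.11 on wild-type and -0.07, 0.43, 0.04, 0.65 and 0.14 on p53-null arrays, and fell by 0.78 (log2, SE 0.14, adjusted p = 0.0204 by limma). Col6a1 (A_51_P474496) read 2.54, 2.48, 2.77, 2.46 and 2.45 against 1.40, 1.95, 2.0, 2.16 and 2.01, and fell by 0.64 (log2, SE 0.14, adjusted p = 0.0318 by limma). Col6a3 (A_52_P479262) read 3.22, 3.19, 3.39, 3.11 and 3.65 against 2.71, 2.91, 2.74, 3.05 and 2.79, and fell by 0.47 (log2, SE 0.12, adjusted p = 0.0440 by limma). The groups were separate on all 3 probes, and p53-null array 4 was the highest of its group on each. Second probes did not pass. For Col6a2, A_52_P362757 read -0.19, -0.39, -0.17, -0.33 and -0.57 against -0.98, -0.78, -0.65, -0.50 and -0.64 and differed by -0.38 ± 0.11 (adjusted p = 0.0688 by limma), with wild-type array 5 among the p53-null arrays. For Col6a3, A_52_P573586 read -5.16, -5.19, -5.06, -5.09 and -3.96 against -5.24, -4.84, -5.71, -4.68 and -5.34 and differed by -0.27 ± 0.27 (adjusted p = 0.558 by limma), with wild-type array 5 far above the rest.

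Col15a1 and Col18a1 encode proteoglycan-like collagens of basement membrane zones, and Col18a1 is the source of endostatin. Col15a1 by A_52_P170882 read -5.87, -5.56, -5.41, -5.58 and -6.30 on wild-type and -6.86, -6.72, -6.36, -6.35 and -6.70 on p53-null arrays, near the limit of detection, since it was well above background on 4 arrays of each group. Wild-type array 5 lay just above p53-null array 4, so the groups were separate, and Col15a1 fell by 0.85 (log2, SE 0.18, adjusted p = 0.0276 by limma). Its other probe, A_51_P159792, read -1.98, -1.30, -1.60, -1.97 and -1.64 against -1.84, -2.44, -1.87, -1.94 and -2.05 with overlapping groups and differed by -0.33 ± 0.16 (adjusted p = 0.218 by limma). Col18a1 by A_51_P191700 read 3.0, 2.95, 3.16, 2.86 and 2.91 on wild-type and 2.48, 2.58, 2.68, 2.74 and 2.68 on p53-null arrays. The groups were separate and the difference was the smallest of the called ones, as Col18a1 fell by 0.34 (log2, SE 0.09, adjusted p = 0.0435 by limma). The other Col18a1 probe, A_52_P261846, read 1.20, 1.27, 1.44, 1.26 and 1.59 against 1.03, 1.39, 1.36, 1.41 and 1.25, with overlapping groups and a difference of -0.06 ± 0.11 (95% interval -0.30 to 0.18).

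Of the 43 probes of the 20 genes described so far, 34 were tested. The 27 tested probes of the 16 genes not described singly lay between -0.63 and 0.50, and the smallest adjusted p among them was 0.0993. They include the transmembrane chains Col13a1, Col17a1, Col23a1 and Col25a1, the anchoring fibril chain Col7a1 and the network chains Col8a1 and Col8a2. A Col23a1 probe, A_52_P431116, had separate groups without being called (-0.29 ± 0.10, adjusted p = 0.0993 by limma). Anchoring fibril collagen Col7a1 differed by 0.03 ± 0.12 (95% interval -0.24 to 0.30), which excludes a fall of the size seen for Col1a1, Col3a1 or Col1a2.

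Probes of the same gene often gave different sizes. Of 21 genes with 2 or more tested probes, 9 had the probe nearest the 3′ end of the gene called lower and 3 had another probe called lower, Col4a1 counting under both. Over 25 pairs of the 3′-most probe with another probe of its gene, the 3′-most was the lower in 15. Col1a1 and Col4a4 were the genes in which a called probe lay upstream of an uncalled 3′-most one. Of the 15 genes with a single tested probe, 5 were called. Calls were concentrated among bright probes. With a mean log2 signal above 0, 14 of 27 collagen probes (51.9%) were called lower, beside 4.02% of all probes of that brightness. From -4 to 0 it was 2 of 20 beside 3.69%, and below -4 it was 1 of 14 beside 1.22%. The median collagen difference was -0.47, -0.08 and -0.03 in these classes, from bright to dim.

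**Figure D3:**
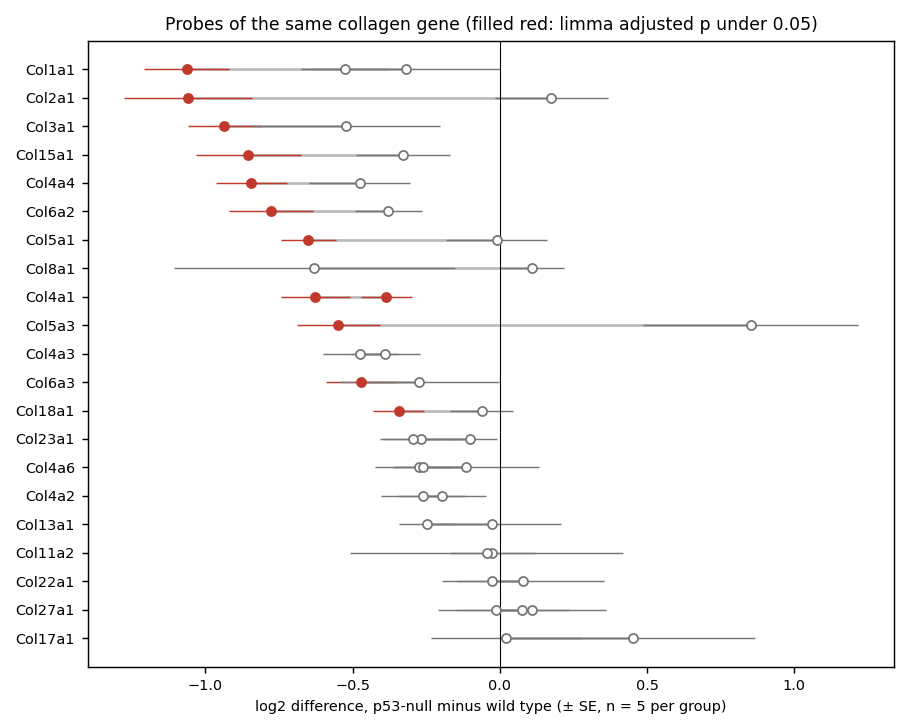
Log2 difference between p53-null and wild-type lung with SE (x axis) for each tested probe of the 21 collagen genes with 2 or more tested probes, joined by a line within a gene; filled red points are called. Col4a1 is the gene with both probes called, and the points of Col2a1, Col5a3, Col8a1, Col22a1 and Col27a1 lie on both sides of 0.

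Calls depended on single arrays. In all 10 fits that left out 1 array, the 17 probes kept a difference below 0. Apart from Col5a2 this was fixed beforehand, since their groups did not overlap. The called probes of Col1a1, Col1a2, Col3a1, Col4a4 and Col5a1 stayed called in all 10 fits. The others kept the call in fewer fits, Col6a2 in 7, the Col4a1 probe A_52_P518827 in 6, Col16a1 in 5, Col2a1 in 4, Col15a1, Col6a1 and the other Col4a1 probe in 3, Col5a2 in 2, and Col18a1, Col4a5, Col5a3 and Col6a3 in 1. The number of collagen probes called lower was 13, 7, 5, 8 and 23 without wild-type arrays 1 to 5, and 8, 9, 5, 11 and 5 without p53-null arrays 1 to 5. The share of all tested probes called lower moved too, between 0.323% without p53-null array 3 and 14.3% without wild-type array 5. Without wild-type array 5, 1 collagen probe was called higher. With the 3 arrays left out that had high skeletal muscle or squamous scores, no collagen probe and 12 probes in all were called by limma. The 17 probes then ran from -1.20 to -0.40, and 25 collagen probes were lower at an unadjusted p under 0.05. No share of all tested probes at that unadjusted p is given for this fit, so the count of 25 cannot be set against a background.

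**Figure D4:**
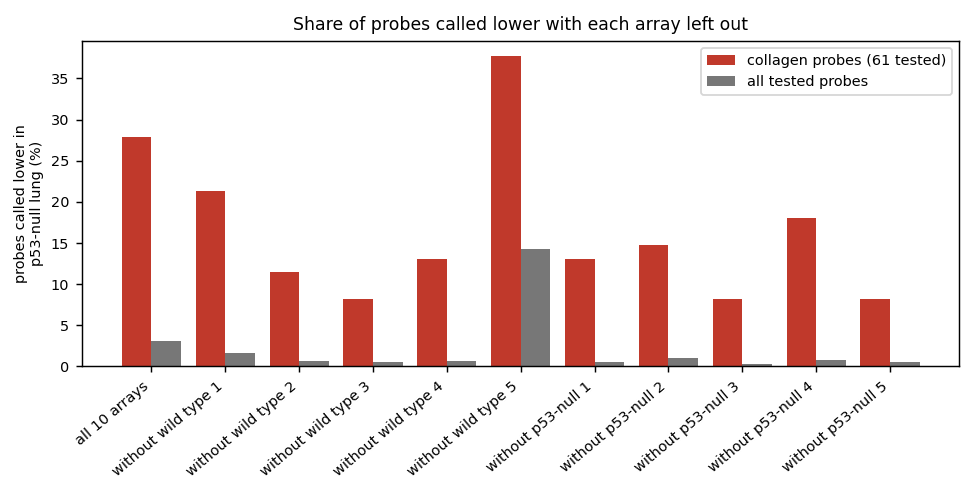
Percentage of probes called lower in p53-null lung (y axis, limma adjusted p under 0.05) among the 61 tested collagen probes and among all tested probes, with all 10 arrays and with each array left out (x axis). The collagen share runs from 8.20% to 37.7% and lies above that of all probes in each pair of bars.

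Slides held arrays of both genotypes in 1 case, p53-null array 2 beside array 4 of the wild type. With slide as a fixed block the comparison rests on that pair, and no collagen probe was called by limma, nor any of the 31599 probes, while 6 collagen probes were lower at an unadjusted p under 0.05. The median over all 61 probes was then -0.11. The 17 called probes were all lower on p53-null array 2 than on wild-type array 4, with differences from -1.20 to -0.19. Apart from Col5a2 their groups did not overlap, so that sign was already fixed by the arrays used for calling. With slide as a random block 14 collagen probes were called. In the higher range of slide numbers, which held p53-null array 2 with arrays 3 and 4 of the wild type, the median of the 61 probes was -0.12, without a test. In the lower range, with 3 wild-type and 4 p53-null arrays, it was -0.31, with none called and 22 lower at an unadjusted p under 0.05. No share of all tested probes at that unadjusted p is given for these fits. The counts of 6 and 22 therefore cannot be set against a background.

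Genes that process collagen were examined as a list of 33, of which 30 were tested. Of these, 8 were called lower and none higher. By probe, 13 of 42 were called lower, beside 3.10% of all tested probes, and the median was -0.21, beside 0.04. Scores of the list ran from 0.03 to 0.30 on wild-type and from -0.24 to -0.01 on p53-null arrays. Adamts2, the protease that removes the amino-terminal propeptide of fibrillar procollagens, was lower on all 4 of its probes. Its probe A_51_P164817 read 0.15, 0.38, 0.70, 0.45 and 0.27 on wild-type and -1.21, -0.72, -0.69, -0.44 and -0.76 on p53-null arrays, and fell by 1.16 (log2, SE 0.15, adjusted p = 0.00820 by limma). The groups were far apart, and the other 3 probes fell by 0.91, 0.77 and 0.72 on the log2 scale, with adjusted p from 0.0173 to 0.0260 by limma. Loxl2, a lysyl oxidase that cross-links collagen, differed by -0.71 ± 0.11 (adjusted p = 0.0143 by limma) and -0.48 ± 0.10 (adjusted p = 0.0278 by limma) on its probes. Fkbp14, a prolyl isomerase of the endoplasmic reticulum that binds procollagen, differed by -1.08 ± 0.19 (adjusted p = 0.0195 by limma) and -0.64 ± 0.16 (adjusted p = 0.0464 by limma), the second with wild-type array 3 left out as an outlier spot. Plod2, which hydroxylates lysines of the telopeptides, differed by -0.60 ± 0.11 (adjusted p = 0.0212 by limma). The other called genes were Fkbp10, Lox, Pcolce and Sparc. A further Sparc probe, also bright, differed by -0.16 ± 0.16 and was not called (adjusted p = 0.544 by limma). The collagen chaperone Serpinh1, named after its value was seen, was not called (-0.18 ± 0.21, adjusted p = 0.620 by limma).

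Collagen receptors had calls in both directions. Of 10 genes, all tested, 2 were called lower and 2 higher. By probe, 2 of 21 were called lower and 3 higher, beside 3.10% and 4.0% of all tested probes. Scores of the list were higher on every p53-null array, from 0.04 to 0.15, than on any wild-type array, from -0.13 to 0.01. The score is a mean over 10 genes, each by its brightest probe, and Lair1 and Gp6 had the largest differences in it, 1.09 and 1.06. The other genes lay between -0.59 (Itga2) and 0.28 (Ddr1), on both sides of 0, so the separation is not a rise shared by the list. The median over the 21 probes was 0.06, within a range of -0.01 to 0.08 over the fits that left out 1 array. Lair1, an inhibitory receptor of leukocytes that binds collagen, was higher by 1.09 ± 0.17 (adjusted p = 0.0125 by limma) and 1.16 ± 0.23 (adjusted p = 0.0251 by limma), and a further probe gave 0.62 ± 0.18 (adjusted p = 0.0620 by limma). Gp6, the collagen receptor of platelets, was higher by 1.06 ± 0.27 (adjusted p = 0.0470 by limma). Itga2, an integrin chain, was lower by 1 probe (-0.59 ± 0.11, adjusted p = 0.0205 by limma), and the other differed by -0.04 ± 0.18. Mrc2, which takes up collagen for degradation, was lower on 1 of 3 probes (-0.56 ± 0.14, adjusted p = 0.0434 by limma), and the others differed by 0.06 ± 0.17 and 0.08 ± 0.11.

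Other matrix genes made by fibroblasts were examined as a list of 16, of which 7 were called lower and none higher. By probe, 8 of 26 were called lower, beside 3.10% of all tested probes, and the median was -0.32. Scores of the list ran from 0.04 to 0.27 on wild-type and from -0.30 to -0.10 on p53-null arrays. The adhesive glycoprotein Tnc (A_51_P291438) differed by -0.97 ± 0.15 (adjusted p = 0.0130 by limma), and its other probes, above background on 5 and 6 arrays, by 0.62 ± 0.40 and -0.72 ± 0.37. The microfibril protein Fbn1 differed by -0.70 ± 0.12 (adjusted p = 0.0175 by limma) and -0.85 ± 0.18 (adjusted p = 0.0271 by limma). Npnt differed by -1.04 ± 0.20 on 1 probe (adjusted p = 0.0236 by limma) and by -0.37 ± 0.13 and -0.32 ± 0.14 on probes that were not called. Postn, a matricellular protein, differed by -0.58 ± 0.13 (adjusted p = 0.0332 by limma). The called genes also include Fbln1, Bgn and Eln. Further probes of Fbln1 (-0.23 ± 0.12, adjusted p = 0.241 by limma) and Bgn (0.11 ± 0.30, adjusted p = 0.852 by limma) were not called.

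Among markers of fibroblasts themselves 1 of 17 probes was called lower and 1 higher, beside 3.10% and 4.0% of all tested probes, and nothing is read from counts this small. Of 12 genes, all well above background on all arrays, Fgf10 was called lower (-0.51 ± 0.13, adjusted p = 0.0459 by limma). Thy1 was called higher by 1 probe (0.65 ± 0.11, adjusted p = 0.0153 by limma) and not by another (0.42 ± 0.28, adjusted p = 0.359 by limma). Whether the Thy1 signal came from fibroblasts was not tested. Pdgfra, named after its values were seen, fell just short of a call on 1 probe (-0.50 ± 0.13, adjusted p = 0.0501 by limma). Its other, dimmer probe differed by -0.01 ± 0.14 (adjusted p = 0.986 by limma). The median over 17 probes was -0.01, with differences from -0.51 to 0.65. Their scores ran from -0.09 to 0.12 on wild-type and from -0.12 to 0.10 on p53-null arrays. By array, the median of the 61 collagen probes on the same scale ran from 0.03 to 0.27 on wild-type and from -0.29 to -0.04 on p53-null arrays, without overlap. The same held for the basement membrane probes, at 0.14 to 0.39 against -0.35 to -0.05. For fibrillar probes wild-type array 1, at -0.11, lay below p53-null arrays 2 and 4, at 0.00 and -0.05. None of 8 smooth muscle, 6 mesothelium, 8 endothelium and 6 alveolar type 1 marker genes tested was called, nor any of 11 skeletal muscle and 10 squamous ones. In the adipocyte list of 10 genes 1 of 14 probes was called higher, beside 4.0% of all tested probes. It was that of Lep (2.03 ± 0.45, adjusted p = 0.0330 by limma), near the limit of detection. The Lep probe was well above background on 5 arrays, the fewest allowed for a test. In the alveolar type 2 list of 8, Sftpa1 was called lower by 1 probe (-0.40 ± 0.10, adjusted p = 0.0437 by limma). Another Sftpa1 probe, A_52_P24439, was brighter and differed by 0.06 ± 0.12 (adjusted p = 0.784 by limma).

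**Figure D5:**
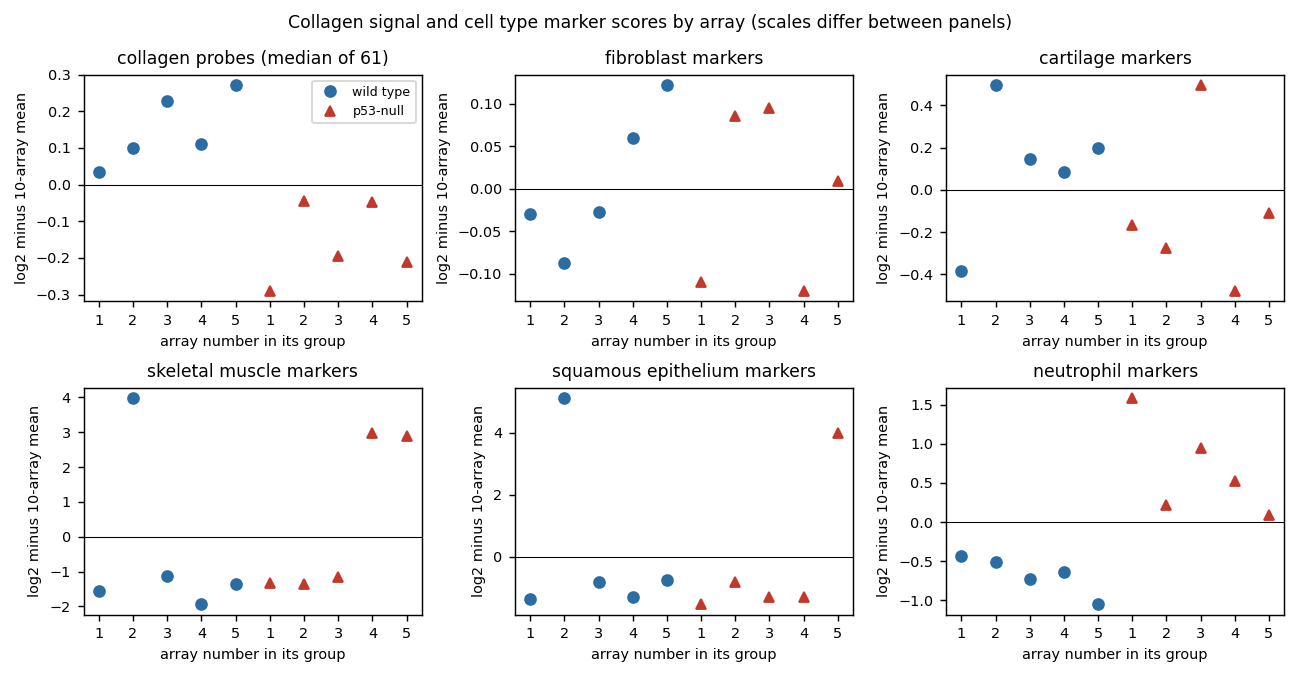
Median log2 signal of the 61 tested collagen probes and mean scores of 5 marker lists on each array, each less its 10-array mean (y axis, with a scale of its own per panel), against the array's number in its group (x axis). Collagen medians are above 0 on all wild-type and below 0 on all p53-null arrays, fibroblast and cartilage scores overlap, and skeletal muscle scores stand out on array 2 of the wild type and arrays 4 and 5 of the p53-null group.

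Sequence upstream of the start was compared for the genes with a called probe. RefSeq promoter windows (GRCm38.p6) were at hand for 13 of the 16 genes with a called probe, in 15 entries, and the 250 bases before the start were searched on both strands. CCAAT, bound by NF-Y, was in 6 of the 15 windows, beside 33.8% of all 32851 windows, and GGGCGG, an Sp1-type GC box, in 8, beside 32.7%. TATAAA was in 1, beside 12.4%, and a p53 half-site in 0, beside 7.13%, which says only that its letters are not in these windows. The windows of Col1a2 and Col3a1 are shown as examples of genes that kept their call in every fit with an array left out and had an entry. Col4a4 and Col5a1 met the same terms and are not shown, a choice made after their values were seen. Both windows are on the plus strand, with CCAAT in capitals where present.
Col1a2 (chr6:4505368-4505617): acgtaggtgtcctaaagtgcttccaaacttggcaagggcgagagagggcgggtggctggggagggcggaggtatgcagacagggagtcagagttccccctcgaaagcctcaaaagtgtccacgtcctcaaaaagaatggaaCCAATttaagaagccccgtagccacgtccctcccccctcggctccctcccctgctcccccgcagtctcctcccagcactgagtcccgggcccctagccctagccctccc
Col3a1 (chr1:45311288-45311537): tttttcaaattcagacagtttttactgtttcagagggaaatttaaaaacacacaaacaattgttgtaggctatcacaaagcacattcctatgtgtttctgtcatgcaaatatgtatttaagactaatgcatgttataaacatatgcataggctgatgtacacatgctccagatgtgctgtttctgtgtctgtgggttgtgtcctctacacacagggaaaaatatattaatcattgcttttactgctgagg
The Col1a2 window holds CCAAT from 109 bases before the start and GGGCGG from 205 and 188 bases before it. The Col3a1 window holds neither and has TATAAA from 117 bases before its start.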

How the data were processed

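Whole-lung RNA was hybridised with Cy3 to 5 wild-type and 5 p53-null 1-colour arrays, per the labels' protocols. The submitters' processing notes name Agilent Feature Extraction 9.5. The deposited intensity is that software's background-subtracted signal, per the file headers, and the deposited value table held the same intensity values (largest difference 0.0). Probe positions are on mm7, per the file headers; no annotation of that build was used here, so exons and UTRs are not assigned. Of the 78 collagen probes 57 matched a RefSeq accession, all with the same symbol.

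From each log2 intensity the array's 75th percentile (43379 spots, controls left out) was subtracted, outlier spots were dropped and spots of a probe averaged. The 31599 probes well above background on 5 or more arrays were fitted in R 4.3.3 with limma 3.58.1 (lmFit, eBayes), and p-values were adjusted over all of them by Benjamini-Hochberg. The code was tested on simulated data. The number of arrays limits the precision. P-values measure the spread between these arrays. Every collagen probe is counted. Values by array are given for called probes and the other tested probes of their genes, for up to 3 genes per type by smallest p, and for chains of the same protein, and up to 4 called genes per list. The members, lists and rule were chosen with earlier results of these data known. Alternatives covered background, scaling, filter, outlier spots, probe choice, slide, slide range, scan day, replicate number, GC, variance model, array weights, threshold and arrays left out.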

Additional observations from a re-analysis of the deposited data

Results flagged for a closer look

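Values that stood far from the rest of their group of 5 arrays were looked for in 107 groups, and 12 were found, where chance singles out about 1 in 20 groups. All are log2 signals relative to the array's 75th percentile, or scores on the log2 scale. Wild-type array 5 was far above its group on the Col4a2 probe A_52_P496142 (3.05, nearest 2.58) and on the Col6a3 probe A_52_P573586 (-3.96, nearest -5.06), and far below it on the Col4a4 probe A_52_P424594 (2.09, nearest 2.69). Its alveolar type 2 score was also high, at 0.39. On p53-null array 1 the called probes of Col16a1 (2.25, nearest 2.53) and Col6a1 (1.40, nearest 1.95) were low and the collagen receptor score was high (0.15). Wild-type array 3 was high for Col6a1 at 2.77. P53-null array 5 was low on the uncalled Col2a1 probe A_52_P216436, at -3.29. The skeletal muscle score of wild-type array 2 was 3.98, and squamous epithelium scores were 5.11 on wild-type array 2 and 4.0 on p53-null array 5.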

How the results depend on the processing

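Settings are compared with the 17 collagen probes called lower of 61, 0 called higher, 2245 probes called in all, and median differences of -0.27 for collagen, -0.32 for fibrillar, -0.39 for basement membrane, -0.04 for FACIT, -0.27 for other collagens, -0.21 for collagen-processing, 0.06 for receptor and -0.32 for fibroblast matrix genes. None of the 17 called probes changed direction under any setting, and of their alternative values 280 kept the call and 225 did not. These values are not independent checks. Settings of filter, threshold and variance model leave the differences unchanged, and the deposited value table holds the same intensities. The scan day block gave the same result as leaving out wild-type array 3. Counts of collagen probes called lower, with all probes called, were 9 and 748 with no filter on dim probes, 11 and 1018 with slide range as a block, 5 and 450 with scan day as a block (wild-type array 3 alone was scanned on another day), 8 and 447 with the GC trend removed, 2 and 88 at an adjusted p under 0.01, 2 and 310 with a log2 difference of at least 1, and 0 and 19 within the lower slide range. With array weights they were 26 and 9623, with 1 collagen probe called higher, and without the 3 arrays high in skeletal muscle or squamous genes they were 0 and 12. All probes called numbered 1080 after scaling by the array median. With slide as a fixed block both counts were 0, and medians were -0.11 for collagen, -0.21 for basement membrane, 0.12 for FACIT, 0.018 for other collagens, -0.018 for processing and -0.034 for receptor genes. The fibrillar median was -0.60 with 1 probe per gene name, -0.053 with array weights and -0.52 with the GC trend removed, where those of all and of other collagens were -0.44 and that of receptor genes -0.071. Within the lower slide range the FACIT median was -0.23 and the receptor median -0.041, and without those 3 arrays the latter was -0.073. Within the higher slide range, a comparison added after seeing the data, medians were -0.12 for collagen, -0.077 for fibrillar and -0.12 for other collagens. Leaving out 1 array gave 5 to 23 collagen probes called lower, 0 to 1 higher and 302 to 9684 probes in all, with fibrillar medians from -0.54 to -0.0225. The cause of these changes was not tested. Among the uncalled probes of the named genes 14 alternative values turned sign, for Col5a1 A_52_P237371, Col2a1 A_52_P216436, Col4a2 A_52_P496142, Col6a3 A_52_P573586 and Col18a1 A_52_P261846. Replicate numbers do not pair the arrays. Correlations of same-numbered arrays' deviations ran from -0.23 to 0.01, and with the replicate block 0 collagen probes and 32 in all were called. There 24 collagen probes were lower at an unadjusted p under 0.05, with no share of all tested probes given to set beside them. Signal over background left 17 collagen probes untested.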

Other observations

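Probes described as collagen, or now known by a collagen symbol, whose deposited name does not follow the pattern were left out of all counts. Among them Emid2, now Col26a1, differed by -0.14 ± 0.14 (adjusted p = 0.554 by limma). A transcript described as a collagen XII chain, TC1430646, read -0.88 to -1.26 on wild-type and -1.22 to -1.72 on p53-null arrays and differed by -0.38 ± 0.11 (adjusted p = 0.0698 by limma).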
